A study of Mus musculus with 16 samples.

Results

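The 10 genes described here are receptors for hematopoietic cytokines, together with one of their ligands. They are Kit, the receptor for stem cell factor, and Kitl, which encodes stem cell factor itself. Epor encodes the erythropoietin receptor. Csf2rb, Csf2ra and Il3ra encode subunits of the GM-CSF and IL-3 receptors, and Csf3r encodes the G-CSF receptor. Il6st encodes gp130, Flt3 the receptor for FLT3 ligand and Il7r the alpha chain of the IL-7 receptor. The genes were chosen by name, each was represented by its brightest probe, and all 10 were among the 37149 genes tested. Kit sits on chromosome 5 with Flt3, Kitl on chromosome 10, Epor on chromosome 9, Csf2rb and Il7r on chromosome 15, Csf2ra on chromosome 19, Csf3r on chromosome 4, Il3ra on chromosome 14 and Il6st on chromosome 13.

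Gene expression was measured on single-color Agilent arrays in differentiating mouse embryonic stem (ES) cells, in order to follow what the loss of Sp1, a transcription factor found in nearly all cells, does along the path to blood. The labels call the ES cells E14, give C57BL/6 as the strain, and set Sp1 +/+ wild type against Sp1 -/- knock-out. According to the study's methods the Sp1-/- cells still make a truncated Sp1 protein that lacks the DNA-binding domain. Flk1+ cells were enriched from embryoid bodies with an antibody to Flk1, and blast cultures of them in VEGF, IL-6 and medium conditioned by an endothelial line were sorted after 2 days. The growth protocol of the record instead describes a methylcellulose culture with IL-3, M-CSF and IL-1, so the cytokines that the cells met are given here as the study's methods state them. HE1, the earlier hemogenic endothelium, was KIT+ Tie2+ CD41-. HE2, the later hemogenic endothelium, was KIT+ Tie2+ CD41+, and progenitors were KIT+ CD41+ and had lost Tie2. Floating and adherent cells were combined before the sort. Each of the 4 populations was hybridized in 2 replicates per genotype, which gives 8 groups and 16 arrays, and this number limits the precision. The record and a supplementary legend disagree on whether replicates are biological or technical, so the p-values measure only the spread between these samples, which may be technical. KIT protein was a gate for HE1, HE2 and progenitors in both genotypes but not for Flk1+ cells, and the Kit comparisons are affected by it.

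Cytokine receptors of this group pass the signal of a secreted factor into the cell. KIT and FLT3 are receptor tyrosine kinases. The other receptors have no kinase of their own and signal through JAK kinases, which phosphorylate STAT transcription factors. The common beta chain encoded by Csf2rb joins GM-CSF, IL-3 or IL-5 specific alpha chains, and gp130 is likewise shared by the IL-6 family. In blood formation, stem cell factor acts through KIT on early progenitors and mast cells, erythropoietin acts on committed erythroid cells, and GM-CSF, G-CSF and IL-3 act on myeloid cells.

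Sp1 binds GC-rich boxes, and GATA factors bind motifs with a GATA core, so the stretch before a listed transcription start was examined for both. The RefSeq promoter table (GRCm38.p6) held entries for 9 of the 10 genes, all but Csf2rb. The window was the 250 bases before the listed start, which is not always the first base of the annotated gene. The Il3ra gene begins at 14345912 and its window at 14346245, so this window lies inside the gene, as does that of Csf3r. Most of the Kitl window does too, with all its boxes, and the windows of Csf2ra and Il7r reach into the gene. The counts below describe these windows only. A GC box, spelled GGGCGG and searched on both strands, was found in 6 of the 9, with 5 in Il3ra, 3 in Kitl and 1 each in Kit, Epor, Csf2ra and Il6st, and none in Csf3r, Flt3 and Il7r. Some of the boxes in Il3ra and Kitl overlap or abut. Over all 32851 promoter entries, 32.7% held the box. The motif AGATAA, searched on both strands, was found in Epor alone of the 9, against 10.0% of all entries, and 1.4% of entries held both motifs. Of 9 promoters, 4 are printed from 5′ to 3′ on the gene's strand with the GC boxes in capitals, and in Epor with the AGATAA motif (as its reverse complement TTATCT) in capitals as well. Kit, Epor and Il6st are shown because their Sp1-/- effect in progenitors stood out, and Il3ra because it has the most GC boxes of the group. Counted from the start, the box begins at -98 in Kit, at -93 in Il6st and at -26 in Epor, where the GATA motif begins at -54. A match is a description of letters, and binding was not measured here.
Kit, chr5:75574737-75574986, plus strand: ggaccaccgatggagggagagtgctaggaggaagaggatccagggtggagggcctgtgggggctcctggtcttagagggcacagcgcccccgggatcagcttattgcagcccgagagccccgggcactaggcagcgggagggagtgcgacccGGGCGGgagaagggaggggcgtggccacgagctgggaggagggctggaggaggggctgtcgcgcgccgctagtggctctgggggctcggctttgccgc
Epor, chr9:21963577-21963826, minus strand: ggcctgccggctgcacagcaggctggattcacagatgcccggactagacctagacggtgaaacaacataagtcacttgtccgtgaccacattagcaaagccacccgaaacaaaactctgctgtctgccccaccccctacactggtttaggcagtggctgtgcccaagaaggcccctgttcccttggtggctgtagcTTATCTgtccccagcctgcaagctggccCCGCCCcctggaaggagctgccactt
Il6st, chr13:112463820-112464069, plus strand: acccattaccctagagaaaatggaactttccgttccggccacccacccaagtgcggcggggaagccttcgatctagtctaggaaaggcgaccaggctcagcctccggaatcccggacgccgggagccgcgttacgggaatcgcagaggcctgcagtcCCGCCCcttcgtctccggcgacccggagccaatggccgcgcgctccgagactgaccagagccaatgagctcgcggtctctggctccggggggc
Il3ra, chr14:14346245-14346494, plus strand: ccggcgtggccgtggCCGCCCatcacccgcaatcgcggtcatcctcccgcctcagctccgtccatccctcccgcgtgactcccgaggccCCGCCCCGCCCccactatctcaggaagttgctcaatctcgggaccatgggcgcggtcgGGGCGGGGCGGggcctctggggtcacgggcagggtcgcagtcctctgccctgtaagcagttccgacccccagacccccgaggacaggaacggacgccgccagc

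Values are the deposited normalized log2 intensities, so that a difference of 1 is a 2-fold change, and levels are compared only within a gene because probes differ in brightness. A gene was called changed at an unadjusted limma p of 0.01 or less together with at least a 2-fold change, and Benjamini-Hochberg adjusted p-values over all 37149 genes stand beside it. Between 67.0% and 77.1% of spots per array were well above background, no spot was saturated, and the lowest correlation between replicates over probes was 0.990. All Sp1+/+ arrays were on 1 slide and all Sp1-/- arrays on the other, and the effects of slide and of genotype cannot be told apart. The Sp1 signal was 4.84-fold lower in Sp1-/- Flk1+ cells, 9.71-fold lower in HE1, 5.90-fold in HE2 and 7.44-fold in progenitors, each called, although where its probe lies relative to the disrupted part of the gene is not known here. Tek, which encodes Tie2, was highest in HE1 (12.42 ± 0.11 in Sp1+/+, 11.77 ± 0.17 in Sp1-/-, SD, n = 2). Itga2b, which encodes CD41, was highest in HE2 (12.08 ± 0.18 and 12.40 ± 0.40). Kdr, which encodes Flk1, had means from 13.66 to 13.90 in the sorted populations of Sp1+/+ cells, against 13.92 ± 0.07 in Flk1+ cells.

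Between successive populations, 3 of the 10 genes made up all the calls that the genotypes shared. Csf2rb and Kit rose from Flk1+ cells to HE1 in both genotypes, Csf2rb rose on to HE2 in both, and Epor rose from HE2 to progenitors in both. HE1 was gated on KIT and Flk1+ cells were not, so the Kit calls from Flk1+ cells to HE1 are not independent of the sort. They are included in the counts below. In Sp1+/+ cells, 2 of the 10 genes were called higher and none lower in HE1 against Flk1+ cells, where 8.55% of all genes were called in either direction. From HE1 to HE2 the count was 1 higher and none lower (3.31% of all genes called), and from HE2 to progenitors 2 higher and none lower (1.74%). Among Sp1-/- cells the counts were 2 higher and none lower in HE1 against Flk1+ cells (9.49% of all genes called), then 3 higher and 1 lower in HE2 against HE1 (5.61%), then 1 higher and 2 lower in progenitors against HE2 (5.00%). Median changes of the 10 genes over these 6 steps ranged from 0.10 to 0.46 on the log2 scale, and the median over all genes stayed between -0.01 and 0.02. Over the longer span from HE1 to progenitors, 4 of the 10 were called higher and 2 lower in Sp1+/+ (6.63% of all genes called), and 3 higher and 2 lower in Sp1-/- cells (11.7%). Epor, Csf2rb and Csf2ra were called higher and Kitl and Il6st lower over this span in both genotypes, and Kit was called higher in Sp1+/+ but not in Sp1-/- cells, a difference between the genotypes that was not itself tested over this span.

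Fewer of the 10 genes differed between the genotypes. None of the 10 genes was called between the genotypes in Flk1+ cells, where 1.64% of all genes were called, and at an unadjusted p under 0.05 there were 2 (Csf2rb and Il3ra). In HE1, 1 gene was called, Csf2rb, higher in Sp1-/- cells (2.09% of all genes called). In HE2 it was again Csf2rb alone, higher (1.95%). In progenitors Epor was called higher and Kit lower (4.11%). The methods' t-test, named there for comparing samples in general while limma is stated for the arrays, takes the spread from the 4 arrays of a comparison alone and called none of the 10 in HE1, HE2 or progenitors. The median log2 difference of the 10 genes was 0.03 for Flk1+ cells, -0.07 for HE1, 0.12 for HE2 and 0.13 for progenitors, against 0.01 to 0.02 over all genes.

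**Figure D1:**
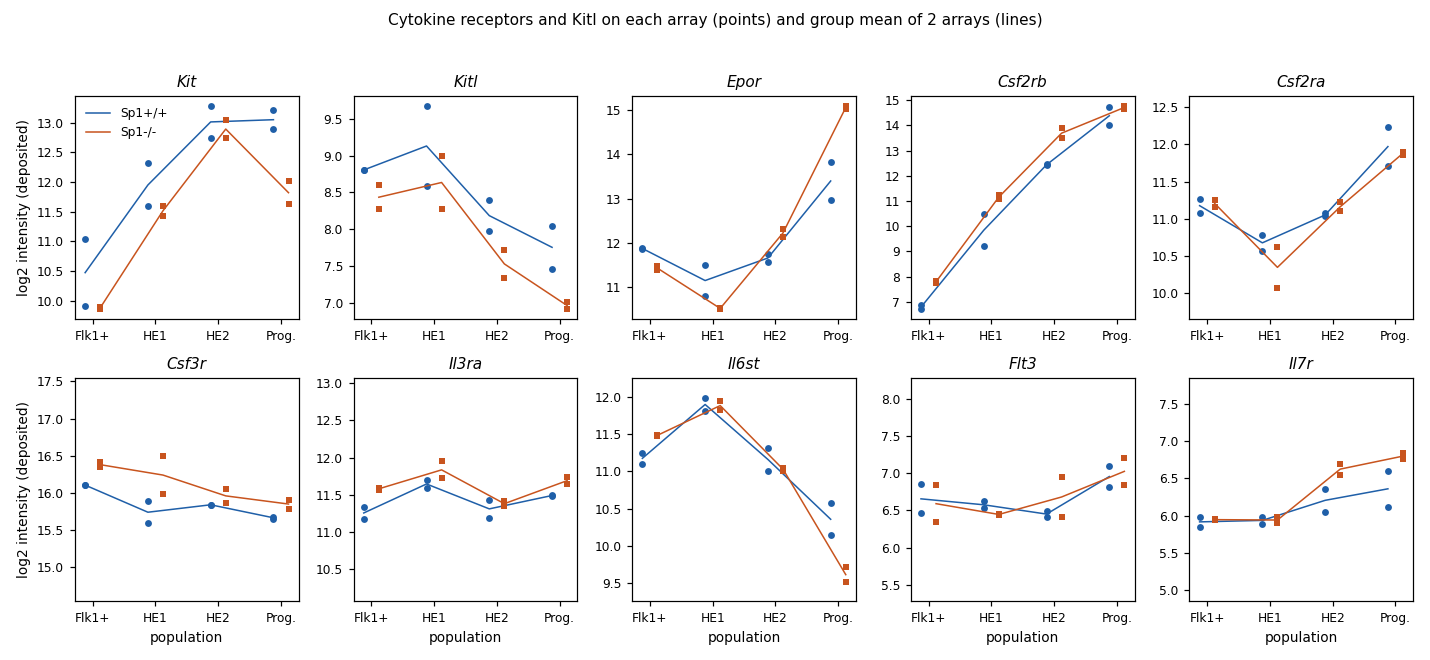
Deposited log2 intensity (vertical axis, which spans a different range in each panel) of the 10 genes in Flk1+ cells, HE1, HE2 and progenitors (horizontal axis). Points are single arrays, circles for Sp1+/+ and squares for Sp1-/-, and lines join the means of 2 arrays. The means of Csf2rb climb through all 4 populations in both genotypes, Epor climbs most in Sp1-/- progenitors, and Kit is lower in Sp1-/- progenitors (means 11.82 against 13.05).

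Kit encodes a receptor that was a gate shared by HE1, HE2 and progenitors. In Sp1+/+ cells its log2 intensity was 9.90 and 11.04 in the 2 replicates of Flk1+ cells, 12.31 and 11.58 in HE1, 13.28 and 12.75 in HE2, with 13.21 and 12.89 in progenitors. In Sp1-/- cells it was 9.86 and 9.90 in Flk1+ cells, 11.60 and 11.43 in HE1, 12.75 and 13.04 in HE2, with 11.62 and 12.02 in progenitors. In Sp1+/+ cells progenitors overlapped HE2 (difference 0.04, 95% interval -0.72 to 0.79), whereas both Sp1-/- progenitor arrays lay below both Sp1-/- HE2 arrays and below both Sp1+/+ progenitor arrays.

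The rise from Flk1+ cells to HE1 was 2.78-fold in Sp1+/+ (log2 1.48 ± 0.34, SE, adjusted p = 0.00754) and 3.11-fold in Sp1-/- cells (1.64 ± 0.34, adjusted p = 0.00372). Since HE1 was gated on KIT and Flk1+ cells were not, no more is read from that step. Without replicate 1 of Sp1+/+ Flk1+ cells, the Sp1+/+ rise was 0.91 and not called (limma unadjusted p = 0.015). From HE1 to HE2, both sorted on KIT, Kit rose 2.60-fold in Sp1-/- cells (1.38 ± 0.34, adjusted p = 0.0159). That call was lost without replicate 2 of Sp1-/- HE1 (1.295) or of Sp1-/- HE2 (1.23), and with the methods' t-test. In Sp1+/+ cells the difference was 2.09-fold with an unadjusted p just past the threshold (1.06 ± 0.34, adjusted p = 0.0778). Several alternatives called this Sp1+/+ difference, among them the processed signal (1.24).

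In progenitors Kit was 2.35-fold lower in Sp1-/- than in Sp1+/+ cells (log2 -1.23, 95% interval -1.98 to -0.48, adjusted p = 0.0367), although both were sorted as KIT+. In the other populations the difference was smaller, at -0.59 in Flk1+ cells (-1.35 to 0.16), -0.43 in HE1 (-1.19 to 0.32) and -0.12 in HE2 (-0.87 to 0.63), and none was called. The call in progenitors was lost when replicate 1 of the Sp1+/+ progenitors was left out (-1.07, limma unadjusted p = 0.033) or replicate 1 of the Sp1-/- progenitors (-1.03, unadjusted p = 0.0367). A Flk1+ call appeared without replicate 1 of Sp1+/+ Flk1+ cells (-1.16, limma unadjusted p = 0.00402). The Sp1-/- fall from HE2 to progenitors was 2.10-fold (-1.07 ± 0.34, unadjusted p = 0.0095, adjusted p = 0.0577). That call is fragile, since it was kept in only 6 of the 16 fits that each left out 1 array, was lost with an offset of 16, with the processed signal and with the replicate block, and came to -0.88 (limma unadjusted p = 0.0682) without replicate 1 of the Sp1-/- progenitors. From HE1 to progenitors Kit rose 2.14-fold in Sp1+/+ cells (adjusted p = 0.0431), a call kept in 5 of the 16 such fits and lost under the replicate block. The change of the Sp1-/- effect between HE2 and progenitors was -1.11 (-2.17 to -0.05, unadjusted p = 0.0424, adjusted p = 0.443), which was not called.

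Kitl, the ligand of KIT, is known as a product of stromal and endothelial cells. Its log2 intensity in Sp1+/+ cells was 8.80 and 8.81 in Flk1+ cells, 8.59 and 9.67 in HE1, 7.97 and 8.40 in HE2, with 8.05 and 7.46 in progenitors. The Sp1-/- values were 8.60 and 8.27 in Flk1+ cells, 9.0 and 8.27 in HE1, 7.72 and 7.34 in HE2, with 6.92 and 7.01 in progenitors. The order of the means was HE1, Flk1+ cells, HE2 and progenitors in both genotypes, with the top pair overlapping in both and the bottom pair overlapping in Sp1+/+ cells.

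Kitl fell 2.15-fold from HE1 to HE2 in Sp1-/- cells (-1.11 ± 0.34, adjusted p = 0.0463), and the Sp1+/+ difference over the same step was -0.94 ± 0.34 (adjusted p = 0.123). The Sp1-/- call was lost without replicate 1 of Sp1-/- HE1 (-0.74, limma unadjusted p = 0.0875) and in several other alternatives. Over the span from HE1 to progenitors Kitl fell in both genotypes, 2.59-fold in Sp1+/+ (-1.38 ± 0.34, adjusted p = 0.015) and 3.18-fold in Sp1-/- cells (-1.67 ± 0.34, adjusted p = 0.00287). The Sp1+/+ call was lost without replicate 2 of HE1 (-0.83, limma unadjusted p = 0.0294) or replicate 2 of the progenitors (-1.08, unadjusted p = 0.0259). Between genotypes the estimate was below 0 in every population, with -0.37 in Flk1+ cells (95% interval -1.13 to 0.39), -0.50 in HE1 (-1.25 to 0.26), -0.66 in HE2 (-1.41 to 0.10) and -0.79 in progenitors (-1.55 to -0.03, unadjusted p = 0.0425, adjusted p = 0.177), and none was called. The arrays of the 2 genotypes overlapped only in HE1.

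RNA from other cells can move with these values in a bulk sample, in which fewer cells of a type and less RNA per cell cannot be told apart. A mesenchymal and muscle marker list averaged 10.29 and 10.59 over its 7 genes on the Sp1+/+ progenitor arrays and 8.31 and 8.43 on the Sp1-/- ones. Of the 7, 3 were called lower there (Col1a1, Col1a2 and Acta2) and none higher, where 4.11% of all genes were called in either direction. Of 8 endothelial markers, 3 were called lower in Sp1-/- progenitors (Cdh5, Esam and Eng) and none higher, and the list averaged 10.19 and 10.97 in Sp1+/+ against 9.29 and 9.58 in Sp1-/- progenitors. Every mesenchymal marker was well above background on at least 1 array of each of these groups, and 1 endothelial marker was on neither array of the Sp1-/- progenitors. The gate for progenitors took KIT+ CD41+ cells without Tie2, and Tek, which encodes Tie2, was 9.01 ± 0.86 in Sp1+/+ and 7.97 ± 0.49 in Sp1-/- progenitors (SD, n = 2), below its level in HE1 and HE2. The part of these markers in the Kit, Kitl and Il6st values of progenitors was not tested.

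Epor encodes the receptor through which erythropoietin keeps erythroid cells alive. In Sp1+/+ cells its log2 intensity was 11.87 and 11.88 in Flk1+ cells, 11.51 and 10.79 in HE1, 11.75 and 11.57 in HE2, with 12.96 and 13.84 in progenitors. In Sp1-/- cells it was 11.39 and 11.47 in Flk1+ cells, 10.51 and 10.53 in HE1, 12.13 and 12.32 in HE2, with 15.03 and 15.09 in progenitors. Both Sp1-/- arrays lay below both Sp1+/+ arrays in Flk1+ cells and HE1 and above them in HE2 and progenitors.

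Epor rose 3.34-fold from HE2 to progenitors in Sp1+/+ cells (1.74 ± 0.26, adjusted p = 0.0047). With Sp1 lost, the rise came in both later steps, 3.26-fold from HE1 to HE2 (1.71 ± 0.26, adjusted p = 0.00098) and 7.14-fold from HE2 to progenitors (2.83 ± 0.26, adjusted p = 6.04e-05). The Sp1+/+ difference from HE1 to HE2 was 0.51 ± 0.26 and was not called. In Sp1-/- cells HE1 was the lowest population, with Flk1+ cells 0.91 above it (adjusted p = 0.0212, under 2-fold).

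The estimated Sp1-/- effect on Epor went from below 0 to above 0 along the path. It was -0.44 in Flk1+ cells (95% interval -1.02 to 0.13), -0.63 in HE1 (-1.20 to -0.06), 0.56 in HE2 (-0.01 to 1.14) and 1.66 in progenitors (1.09 to 2.23), and only the last was called, at 3.16-fold (adjusted p = 0.00159). The test of the change itself gave 2.10 between Flk1+ cells and progenitors (1.30 to 2.91, adjusted p = 0.00875), where 3.82% of all genes were called for such a change. Between HE1 and HE2 it gave 1.195 (0.39 to 2.00, unadjusted p = 0.00763, adjusted p = 0.417), where 0.743% were called. Between HE2 and progenitors it was 1.095 (0.29 to 1.90, unadjusted p = 0.0124), not called, and none of the 10 was called for that change (1.59% of all genes) or between Flk1+ cells and HE1 (1.60%). The progenitor call was kept when any 1 array was left out. The HE1 to HE2 change kept its call in only 3 of the 16 fits that each left out 1 array, and it lost it with the replicate block and the processed signal as well. Its value ranged from 0.84 to 1.56 over those 16 fits, lowest without replicate 1 of Sp1+/+ HE1.

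Erythroid markers moved in the same direction. The mean log2 intensity of 10 erythroid genes was 12.02 and 13.46 on the Sp1+/+ progenitor arrays and 15.14 and 15.16 on the Sp1-/- ones, and 5 of the 10 were called higher (Klf1, Epb42, Alas2 and Slc4a1 among them) and none lower. Their median difference was 2.40, against 0.02 over all genes, of which 4.11% were called in progenitors. In HE2 the list averaged 9.79 and 11.05 against 11.84 and 11.89, with Slc4a1 alone called higher (1.95% of all genes called). In HE1 the Sp1+/+ arrays spanned 7.61 to 10.24 and the Sp1-/- arrays 8.85 to 8.86, and in Flk1+ cells the arrays spanned 7.68 to 8.18 and 7.60 to 7.64, with none called. All 10 erythroid genes were well above background in HE1, HE2 and progenitors on at least 1 array per group. Of 6 megakaryocyte markers, 4 were called higher in Sp1-/- progenitors (Pf4, Gp1bb, Gp9 and Gp5). The part of these cells in the Epor values was not tested.

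**Figure D2:**
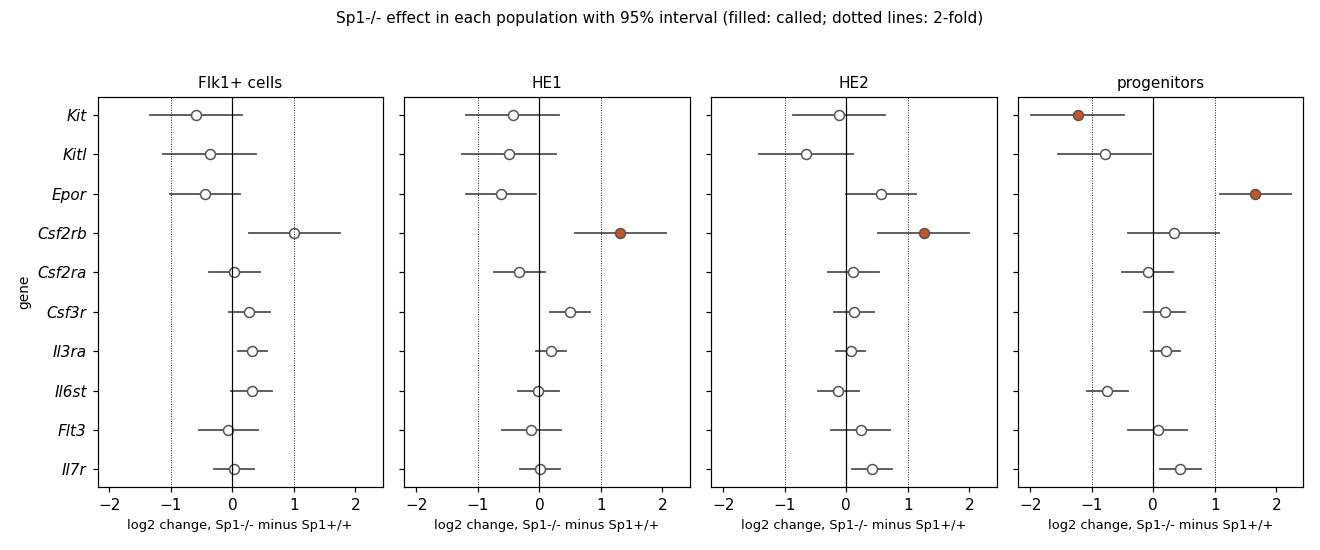
Log2 change from Sp1+/+ to Sp1-/- cells (horizontal axis) for each of the 10 genes (vertical axis), with 1 panel per population. Circles are limma estimates from 2 arrays against 2, bars their 95% intervals, filled circles called changes and dotted lines 2-fold. Csf2rb is filled in HE1 and HE2, Kit and Epor are filled on opposite sides in progenitors, and no gene is filled in Flk1+ cells.

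Csf2rb, the shared beta chain of the GM-CSF, IL-3 and IL-5 receptors, had the widest range of the 10 genes. In Sp1+/+ cells its log2 intensity was 6.86 and 6.72 in Flk1+ cells, 10.48 and 9.20 in HE1, 12.41 and 12.46 in HE2, with 14.02 and 14.74 in progenitors. The Sp1-/- arrays gave 7.83 and 7.76 in Flk1+ cells, 11.08 and 11.23 in HE1, 13.50 and 13.88 in HE2, with 14.66 and 14.76 in progenitors. No 2 neighboring populations overlapped in either genotype. The Sp1-/- arrays lay above the Sp1+/+ arrays in all populations but progenitors, where they overlapped.

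The rise from Flk1+ cells to HE1 was 8.28-fold in Sp1+/+ (3.05 ± 0.34, adjusted p = 4.93e-05) and 10.3-fold in Sp1-/- cells (3.36 ± 0.34, adjusted p = 2.2e-05). From HE1 to HE2 it was 6.04-fold (2.59 ± 0.34, adjusted p = 0.000883) and 5.80-fold (2.54 ± 0.34, adjusted p = 0.000426). From HE2 to progenitors it was 3.85-fold in Sp1+/+ cells (1.94 ± 0.34, adjusted p = 0.0106), while the Sp1-/- difference of 1.02 ± 0.34 missed the threshold (unadjusted p = 0.0113).

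Between the genotypes Csf2rb was 2.49-fold higher in Sp1-/- HE1 (log2 1.31, 95% interval 0.58 to 2.05, adjusted p = 0.0323) and 2.39-fold higher in Sp1-/- HE2 (1.25, 0.52 to 1.99, unadjusted p = 0.00328, adjusted p = 0.0546). It was 2.01-fold higher in Flk1+ cells, which missed the p threshold (1.00, 0.27 to 1.74, unadjusted p = 0.0122), and 0.33 higher in progenitors (-0.41 to 1.07, adjusted p = 0.601). The change of the effect between HE2 and progenitors was -0.93 (-1.97 to 0.12, adjusted p = 0.532), so that a loss of the difference in progenitors was not shown. The HE1 value rests on replicate 2 of Sp1+/+ HE1, without which it was 0.68. Its call was also lost without replicate 2 of Sp1-/- HE1 (1.24). The HE2 call was lost without either Sp1+/+ HE2 array (1.23 and 1.28), without replicate 2 of Sp1-/- HE2 (1.065) and with the processed signal (1.14).

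The array carried 2 probes for Csf2rb, and they disagreed on the size of the change. The dimmer one went from 7.95 and 7.84 in Sp1+/+ Flk1+ cells to 10.29 and 10.86 in progenitors, and from 8.12 and 7.65 to 10.97 and 11.10 in Sp1-/- cells. From Flk1+ cells to HE1 it was not called in either genotype (0.49 ± 0.22 and 0.93 ± 0.22), so that the called rises over this step rest on the brighter probe. From HE1 to HE2 it was called in Sp1-/- (1.41 ± 0.22) but not in Sp1+/+ cells (0.88 ± 0.22), and from HE2 to progenitors in Sp1+/+ cells (1.31 ± 0.22), as for the brighter probe. Its Sp1-/- effect was -0.01 in Flk1+ cells, 0.43 in HE1, 0.96 in HE2 (adjusted p = 0.0317, under 2-fold) and 0.46 in progenitors, with none called.

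Csf2rb2, which lies next to Csf2rb on chromosome 15, encodes a closely similar beta chain that in mice serves IL-3. Its brighter probe followed the brighter Csf2rb probe, with a Pearson r of 0.998 over the 16 arrays. Its Sp1-/- effect was 1.40 in HE1 (adjusted p = 0.0167) and 1.37 in HE2 (adjusted p = 0.0231), both called. The dimmer Csf2rb2 probe gave 0.23 in HE1 and 0.93 in HE2, neither called. Whether a probe of one gene also takes RNA of the other was not tested, so the 2 genes are uncertain as separate measurements.

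**Figure D3:**
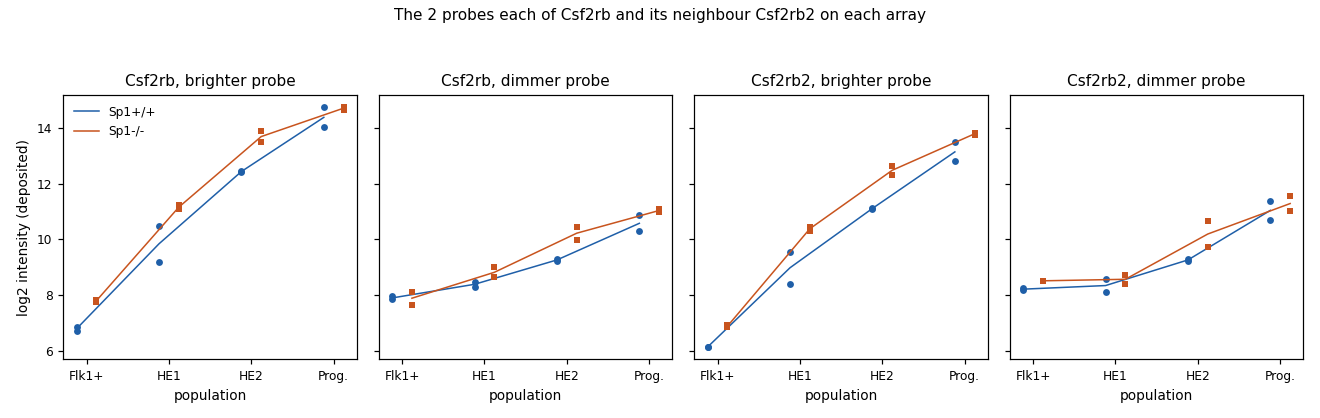
Deposited log2 intensity (vertical axis, shared by the 4 panels) of the brighter and dimmer probes of Csf2rb and Csf2rb2 across the 4 populations (horizontal axis), points for arrays and lines for means of 2. All 4 probes end highest in progenitors in both genotypes, and the brighter pair spans a wider range, starting at 6.12 to 7.83 in Flk1+ cells and ending at 12.80 to 14.76 in progenitors.

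Myeloid markers stood beside the Csf2rb difference in HE2. The mean of 9 myeloid genes was 9.44 and 9.82 on the Sp1+/+ HE2 arrays and 10.22 and 10.47 on the Sp1-/- ones, with 3 called higher (Csf1r, Fcgr3 and Ptprc) and none lower (1.95% of all genes called). In HE1 the list averaged 8.53 and 8.87 against 8.82 and 9.02, with none called, and 1 of its genes was not above background in either genotype. In progenitors, where Csf2rb was not called, the list averaged 10.51 and 10.67 against 10.78 and 10.81. The same 3 genes were called higher there and Cebpe lower (4.11% of all genes called), and the list's median difference was -0.085. Of 6 mast cell genes, 3 were not above background on either array of Sp1+/+ HE2 and 2 on either array of Sp1-/- HE2. The part of these cells in the Csf2rb values was not tested.

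Of the alpha chains that pair with the common beta chain, Csf2ra changed along the path and Il3ra did not pass 2-fold. Csf2ra, the GM-CSF specific chain, was 11.27 and 11.08 in Sp1+/+ Flk1+ cells, 10.78 and 10.57 in HE1, 11.07 and 11.03 in HE2, with 11.71 and 12.23 in progenitors. The Sp1-/- values were 11.25 and 11.16, 10.62 and 10.07, 11.10 and 11.22, and 11.86 and 11.90 in the same order of populations. HE1 was the lowest and progenitors were the highest population in both genotypes. Progenitors exceeded HE2 by 0.92 ± 0.19 in Sp1+/+ (adjusted p = 0.0258) and by 0.72 ± 0.19 in Sp1-/- cells (adjusted p = 0.0255), both under 2-fold and so not called. From HE1 to progenitors it rose 2.45-fold in Sp1+/+ (1.30 ± 0.19, adjusted p = 0.000521) and 2.90-fold in Sp1-/- cells (1.54 ± 0.19, adjusted p = 7.75e-05), and both calls were kept when any 1 array was left out. The Sp1-/- effect lay between -0.33 in HE1 (95% interval -0.74 to 0.08) and 0.11 in HE2 (-0.30 to 0.52), none called.

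Il3ra, the IL-3 specific chain, spanned 0.77 over all 16 arrays, from 11.18 in Sp1+/+ Flk1+ cells to 11.95 in Sp1-/- HE1. Its highest mean was in HE1 in both genotypes, at 11.64 ± 0.08 in Sp1+/+ and 11.84 ± 0.16 in Sp1-/- cells (SD, n = 2). The Sp1-/- effect was 0.33 in Flk1+ cells (95% interval 0.09 to 0.56, unadjusted p = 0.0119, adjusted p = 0.106), 0.19 in HE1, 0.07 in HE2 and 0.20 in progenitors, none called. Each interval excluded a 2-fold change.

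Csf3r, the G-CSF receptor of the neutrophil lineage, stayed within 0.90 over all arrays. It had only 1 probe, which was bright in every population, and whether that probe takes only Csf3r RNA was not tested. In Sp1+/+ cells it was 16.10 and 16.11 in Flk1+ cells, 15.89 and 15.59 in HE1, 15.84 on both HE2 arrays, and 15.65 and 15.68 in progenitors. In Sp1-/- cells it was 16.35 and 16.41, 15.99 and 16.49, 16.05 and 15.87, and 15.91 and 15.79. Flk1+ cells had the highest mean in both genotypes, and neighboring populations in the order of levels overlapped in all but the top pair of Sp1+/+ cells. The Sp1-/- arrays lay above the Sp1+/+ arrays in every population, by 0.27, 0.50, 0.12 and 0.19 from Flk1+ cells to progenitors. The HE1 difference had an interval of 0.17 to 0.83 (unadjusted p = 0.0065, adjusted p = 0.0594) and was under 2-fold, so none was called.

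Il6st encodes gp130, the signaling chain for IL-6, which was in the blast culture medium. In Sp1+/+ cells its log2 intensity was 11.10 and 11.25 in Flk1+ cells, 11.81 and 11.99 in HE1, 11 and 11.32 in HE2, with 10.57 and 10.14 in progenitors. The Sp1-/- values were 11.49 and 11.48 in Flk1+ cells, 11.94 and 11.83 in HE1, 11.01 and 11.05 in HE2, with 9.51 and 9.71 in progenitors. It peaked in HE1 and was lowest in progenitors in both genotypes, and the genotypes overlapped in HE1 and HE2. From that peak to progenitors it fell 2.92-fold in Sp1+/+ (-1.54 ± 0.15, adjusted p = 4.33e-05) and 4.84-fold in Sp1-/- cells (-2.27 ± 0.15, adjusted p = 8.98e-07), both called, also when any 1 array was left out.

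From HE2 to progenitors Il6st fell 2.68-fold in Sp1-/- cells (-1.42 ± 0.15, adjusted p = 0.000134). The Sp1+/+ difference over this step was -0.81 ± 0.15 (adjusted p = 0.016), under 2-fold, and it passed 2-fold without replicate 1 of the Sp1+/+ progenitors (-1.02). The Sp1-/- effect in progenitors was -0.74 (95% interval -1.08 to -0.41, adjusted p = 0.00724), which passed the p threshold but not 2-fold and was not called. It was 0.31 in Flk1+ cells (-0.02 to 0.64), -0.01 in HE1 (-0.35 to 0.32) and -0.13 in HE2 (-0.46 to 0.20). The effect changed by -1.06 between Flk1+ cells and progenitors (-1.52 to -0.59, adjusted p = 0.0171), which was called. Without replicate 1 of the Sp1+/+ progenitors the change was -0.84, under 2-fold. It was also under 2-fold without replicate 1 of Sp1+/+ Flk1+ cells (-0.98) or of Sp1-/- progenitors (-0.955), and with the processed signal (-0.953).

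**Figure D4:**
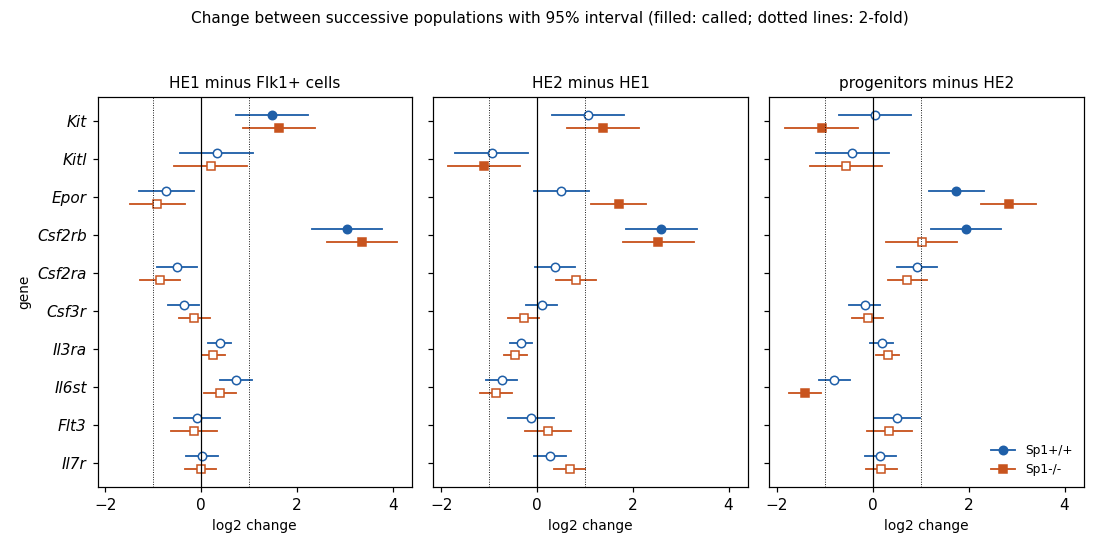
Log2 change between successive populations (horizontal axis) for each of the 10 genes (vertical axis), 1 panel per step. Circles are Sp1+/+ and squares Sp1-/- cells, bars are 95% intervals of the limma estimates, filled symbols are called changes and dotted lines mark 2-fold. Csf2rb is filled in both genotypes in the first 2 panels, and in the last panel Epor is filled on the right in both genotypes while Kit and Il6st are filled on the left in Sp1-/- cells.

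Flt3 and Il7r, receptors known from lymphoid progenitors, were near the background of the arrays. The brighter Flt3 probe ran from 6.34 to 7.21 over the 16 arrays and was well above background on 15 of them. Its means in Sp1+/+ cells were 6.66 ± 0.28 for Flk1+ cells, 6.58 ± 0.06 for HE1, 6.45 ± 0.06 for HE2 and, for progenitors, 6.96 ± 0.21 (SD, n = 2), and in Sp1-/- cells 6.59 ± 0.35, 6.45 ± 0.01, 6.68 ± 0.38 and 7.03 ± 0.26. The Sp1-/- effect lay between -0.13 in HE1 and 0.23 in HE2, and no interval reached 2-fold. The dimmer Flt3 probe also gave no call.

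Il7r was well above background on 6 of 16 arrays. None of the 4 Flk1+ arrays and none of the 4 HE1 arrays reached that level, so only an approximate bound is given there. It was measured on both arrays of Sp1-/- HE2 (6.70 and 6.55) and Sp1-/- progenitors (6.76 and 6.84), and on 1 of 2 arrays in Sp1+/+ HE2 (6.36 and 6.05) and Sp1+/+ progenitors (6.60 and 6.12). Sp1-/- progenitors were 1.74-fold above the bound for Sp1-/- Flk1+ cells, and Sp1-/- HE2 1.54-fold. The limma tests of the measured differences, which include values not above background, gave adjusted p = 0.000921 and adjusted p = 0.0056. The size depends on the background correction, since HE2 minus HE1 in Sp1-/- cells was 0.69 and not called in the deposited values, but 1.24 with the offset of 16 that the methods state and 3.50 with the scanner's processed signal, both called. The bound sets the mean of the brighter group against the lowest signal well above background on the dimmer arrays, or the measured value where that is higher. It is not a strict limit. On replicate 2 of Sp1-/- Flk1+ cells that lowest signal was 5.91, yet the dimmer Flt3 probe at 6.05 was not well above background. Between genotypes the difference was 0.42 in HE2 (95% interval 0.09 to 0.75, unadjusted p = 0.0165, adjusted p = 0.15) and 0.44 in progenitors (0.11 to 0.77, unadjusted p = 0.013, adjusted p = 0.0812), neither called. Of 6 lymphoid markers none was called between genotypes in any population, where 1.64% to 4.11% of all genes were called.

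Other genes of the same pathways were taken from fixed lists. Of 22 further cytokine receptors, all tested, none was called between genotypes in Flk1+ cells. In HE1, 3 were called higher in Sp1-/- cells, which were Csf2rb2, Il2rg (the common gamma chain, 1.02 ± 0.15, adjusted p = 0.00229) and Lepr (the leptin receptor, 1.30 ± 0.31, adjusted p = 0.0242). In HE2, 3 were higher, which were Csf2rb2, Il10ra (a chain of the IL-10 receptor, 1.07 ± 0.32, adjusted p = 0.0828) and Csf1r (the M-CSF receptor of macrophages, 1.75 ± 0.36, adjusted p = 0.0149). Csf1r was also higher in progenitors (1.48 ± 0.36, adjusted p = 0.0188), and none of the 22 was called lower in any population. The list's median difference was between -0.04 and 0.09.

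Of 16 ligands, Flt3l, the ligand of FLT3, was called higher in Sp1-/- HE1 (1.43 ± 0.29, adjusted p = 0.0138) and HE2 (1.40 ± 0.29, adjusted p = 0.0184). Csf1, which encodes M-CSF, the ligand of the Csf1r product, was lower in Sp1-/- progenitors (-2.16 ± 0.19, adjusted p = 4.57e-05). No other ligand was called. In progenitors the M-CSF ligand and its receptor thus differed between the genotypes in opposite directions.

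Of 21 kinases, STATs and adaptors, Pik3cd and Vav1 were called higher in Sp1-/- HE2 (1.86 ± 0.17, adjusted p = 9.3e-05, and 1.64 ± 0.18, adjusted p = 0.000397) and no other in any population. The share of all genes called was 1.95% in HE2 and ran from 1.64% to 4.11% over the populations. Pik3cd encodes a leukocyte form of the PI3-kinase catalytic subunit, and Vav1 a guanine nucleotide exchange factor of blood cells. No JAK or STAT gene of the list was called between the genotypes.

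Of 20 inhibitors and feedback regulators, 4 were called lower in 1 population each and none higher. Socs1, a STAT-induced inhibitor of JAK kinases, was lower in Sp1-/- Flk1+ cells (-1.46 ± 0.16, adjusted p = 0.000409), as was the adaptor Dok1 (-1.14 ± 0.17, adjusted p = 0.00262). Ptpn6, which encodes the phosphatase SHP-1, was lower in HE1 (-1.27 ± 0.18, adjusted p = 0.00173), and Socs2 in progenitors (-1.38 ± 0.32, adjusted p = 0.0143).

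Of 12 genes known as STAT or growth factor targets, Egr1 was called higher in Sp1-/- Flk1+ cells (1.67 ± 0.22, adjusted p = 0.00145). The survival kinase gene Pim1 was higher in HE2 (1.68 ± 0.22, adjusted p = 0.0011) and progenitors (1.13 ± 0.22, adjusted p = 0.00584). Ccnd1, which encodes cyclin D1, and Id1 were lower in progenitors (-2.18 ± 0.54, adjusted p = 0.0207, and -1.18 ± 0.21, adjusted p = 0.00386). All-gene shares of calls were 1.64% in Flk1+ cells, 1.95% in HE2 and 4.11% in progenitors.

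Along the path in Sp1+/+ cells, 8 of the 22 further receptors rose from Flk1+ cells to HE1, where 8.55% of all genes were called in either direction. From there 3 rose and 1 fell to HE2 (3.31% of all genes), and 3 rose to progenitors (1.74%). For Sp1-/- cells 6 rose (9.49% of all genes called), then 5 rose and 2 fell (5.61%), then 3 rose and 4 fell (5.00%). From Flk1+ cells to HE1, 3 of the 20 inhibitors and feedback regulators were called higher and 1 lower in Sp1+/+ cells (8.55%). In Sp1-/- cells 4 were called higher and 2 lower (9.49%). Cish, a feedback inhibitor of STAT5 signaling, and Socs3 were among those called higher in both genotypes. From HE1 to HE2, Cish was called lower in both genotypes. Lifr, a partner of gp130, fell from HE1 to HE2 in both.

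For each of the 10 genes, the 3 tested genes with a symbol whose values over the 16 arrays correlated best with it were listed as a description of likeness, over 20121 genes. The arrays share population and genotype, so high values are common. Kit was most like Elovl7 (Pearson r = 0.976), Pcbd1 (0.972) and Phtf1 (0.971), and Kitl was most like Dok4 (0.951), Rab15 (0.949) and Zfp287 (0.946). Epor was most like Spaca9 (0.980), Ell2 (0.978) and Hmgb3 (0.976). After Csf2rb2, Csf2rb was most like Mvb12b (0.986) and Trmt2b (0.986). Il6st was most like Tns2 (0.992), Mapk12 (0.989) and Fbxl7 (0.988). Csf2ra was most like Etfrf1 (0.954), Spn (0.949) and Rnaseh2b (0.946), and Csf3r was most like Mtif2 (0.971), Mettl7a2 (0.969) and Ap5z1 (0.966). For the narrow ranges of Il3ra and Flt3 the best values were 0.916 (Parp8) and 0.937 (Gm7550), and for Il7r 0.961 (Tespa1).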

How the data were processed

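RNA of 16 samples was labeled with Cy3 and hybridized to Agilent mouse arrays of 62976 spots each. The authors deposited, for each array, the scanner software's intensity per spot, and for the series a table of normalized log2 values. Per the labels the software was Feature Extraction 10.7.1.1, while the file headers give 10.7.3.1. The written methods state normexp background correction with an offset of 16 and quantile normalization in limma. The deposited log2 values were matched to within 0.0258 with an offset of 50, and an offset of 16 left differences of up to 1.63. They were used as deposited, and the intensities served for background flags and alternatives.

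Control spots were left out, outlier spots (95 to 182 per array) were set missing, and spots of a probe were averaged. Accessions were matched to RefSeq symbols (20881 of 37932 target names). Of 55681 probes, 55595 reached a log2 value of 6 on at least 1 array, and the probe with the highest mean stood for a gene. A single limma fit (R 4.3.3, limma 3.58.1) with 8 group coefficients and 8 residual degrees of freedom gave all contrasts. It was tested on simulated data. Groups came from the labels. The members and lists were chosen with earlier results of these data known. The genes named are the 10, the 3 most correlated with each, the sort gates, Sp1, and list genes called between genotypes; Cish, Socs3 and Lifr were named after their values were seen, and some list genes are not reported here by name. The alternatives were other background corrections and scalings, other filters and probe rules, other thresholds and tests, a replicate block, and leaving out each array. Replicate numbers were not taken to pair samples in the main fit. The replicate differences of 11 of 28 pairs of groups correlated above 0.1. Their r ran from -0.174 to 0.503, the highest between HE1 and HE2 of Sp1+/+ cells. Whether samples of the same number share a culture was not settled by this, and shared cultures are not modeled in the main fit.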

Additional observations from a re-analysis of the deposited data

Results flagged for a closer look

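A test of the difference itself called a change of the genotype effect between populations for 2 of the 10 genes. Of all genes, 0.743% were called for the change from HE1 to HE2 and 3.82% for that from Flk1+ cells to progenitors. For Epor the Sp1-/- effect was 1.195 higher in HE2 than in HE1 on the log2 scale (limma, unadjusted p = 0.00763, adjusted p = 0.417), and 2.10 higher in progenitors than in Flk1+ cells (adjusted p = 0.00875). The Epor change from HE1 to HE2 lost its call in most fits that left out an array. Both Sp1-/- arrays lay below both Sp1+/+ arrays in Flk1+ cells and HE1 and above them in HE2 and progenitors. For Il6st the effect was lower in progenitors than in Flk1+ cells, with a difference of -1.06 (adjusted p = 0.0171). That change was under 2-fold, and its call lost, without replicate 1 of Sp1+/+ Flk1+ cells (-0.98), of Sp1+/+ progenitors (-0.84) or of Sp1-/- progenitors (-0.955). The processed signal also left it under 2-fold (-0.953). Groups of 2 arrays are too small to search for single outlying samples.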

How the results depend on the processing

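No called value of the 10 genes changed sign under any alternative. Of the single values recomputed, 3787 kept their side of the threshold, 93 lost a call and 40 gained one, and the counts of members called moved by over 1.5 times in 56 cases and by less in 308. The HE1 and HE2 calls of Csf2rb and the progenitor call of Kit rest on 2 arrays against 2, and the genotypes share no slide.

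In Flk1+ cells 1 member was called between the genotypes, in place of 0, with an offset of 16, with no background correction, with the scanner's processed signal, with only the arrays of the comparison, with 2-fold and no p, and with the methods' t-test at p of 0.01. It was Csf2rb each time. In HE1 the count was 0 with the mean over probes, with only the arrays of the comparison, and with the methods' t-test before and after adjustment. In HE2 it was 0 at an adjusted p of 0.05, and 0 with the methods' t-test before and after adjustment, which also gave 0 in progenitors both ways. From HE1 to HE2 in Sp1+/+ cells it was 2 with the processed signal, with probes well above background, with the mean over probes and with 2-fold and no p. From Flk1+ cells to HE1 in Sp1+/+ cells it was 1 with only the arrays of the comparison. The methods' t-test gave 0 members in each of the 3 Sp1+/+ steps before and after adjustment, 2 from HE1 to HE2 in Sp1-/- cells at p of 0.01, and 0 in each Sp1-/- step after adjustment. From HE1 to progenitors, a span added after seeing the data, it gave 0 in Sp1+/+ cells both ways, and in Sp1-/- cells 3 and, after adjustment, 0. For changes of the Sp1-/- effect between populations, 2-fold and no p gave 5. Fewer residual degrees of freedom go with the t-test and the smaller fits.

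With each array left out in turn, the counts ranged from 0 to 1 in Flk1+ cells, HE1 and HE2, and from 1 to 2 in progenitors. For the Sp1+/+ steps they ranged from 1 to 2, from 1 to 3 and from 2 to 4, for the Sp1-/- steps from 2 to 3, from 2 to 4 and from 2 to 4, from HE1 to progenitors from 4 to 6 in Sp1+/+ and 5 throughout in Sp1-/- cells, and for the change of the effect from 1 to 4. The remaining sample of the thinned group is then assumed to vary like the other groups.

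The replicate block kept the counts between genotypes at 0, 1, 1 and 2, with correlations of same-numbered samples of 0.23 (Flk1+ cells), 0.28 (HE1), -0.17 (HE2) and -0.11 (progenitors). Under the block, 4 single calls were lost, which were the rise of Kit from HE1 to progenitors in Sp1+/+ cells, the fall of Kitl from HE1 to HE2 and of Kit from HE2 to progenitors in Sp1-/- cells, and the change of the Epor effect from HE1 to HE2 (limma unadjusted p = 0.0107). Crossing the numbers in HE2 and progenitors, an alternative chosen after seeing the data, gave 1 call in HE2 and 2 in progenitors. The processed signal shifted the median of all genes by 0.19 between genotypes in HE1, 0.15 for the change of the effect from Flk1+ cells to HE1, 0.11 for that from Flk1+ cells to progenitors and -0.11 from Flk1+ cells to HE1 in Sp1+/+ cells, and by under 0.1 elsewhere. Il7r, near background, depends most on the correction, with 0.42 between genotypes in HE2 in the deposited values and 2.16 in the processed signal (limma unadjusted p = 0.00973).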
